A study of Mus musculus with 11 samples.

Results

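The 8 small leucine-rich proteoglycan genes decorin (Dcn), biglycan (Bgn), asporin (Aspn), lumican (Lum), fibromodulin (Fmod), Prelp, osteoglycin (Ogn) and podocan (Podn) were followed through 11 RNA sequencing libraries of mouse heart. They were chosen by name from the known family, with earlier results of these data known, and are 8 of the 55421 genes in the count table. All mice were female C57BL/6J animals aged 8 weeks. Sham mice (n = 3) were sham-operated, gave heart tissue without an infarct and are labelled as having received the solvent DMSO. The DMSO group (n = 4) had a myocardial infarction (MI), made by permanent ligation of the left anterior descending coronary artery, and received solvent. The A10i group (n = 4) had the same infarction and received GI254023X, an inhibitor of the membrane protease ADAM10, at 100 mg/kg. The tissue was cut out 3 days after surgery, in infarcted hearts with the infarct and its border zone in 1 piece. The inhibitor and solvent were given by implanted minipumps. The comparison of A10i with DMSO asked how the inhibitor changed the infarcted tissue, and both comparisons with Sham used the same 3 control libraries.

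Small leucine-rich proteoglycans are secreted matrix proteins built from leucine-rich repeats, many of which carry chondroitin, dermatan or keratan sulfate chains. Most bind fibrillar collagen and set the spacing and thickness of its fibrils, and several bind TGF-beta or act on cell surface receptors. In the heart they are made mainly by fibroblasts, and they are part of the matrix that replaces lost muscle after an infarction.

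Bgn was the member with the clearest rise after MI, to 2.43 times Sham in DMSO hearts and 2.99 times Sham in A10i hearts. Ogn fell to 0.656 times Sham in DMSO hearts. Dcn, Lum and Aspn passed the test against Sham in A10i hearts but not in DMSO hearts. Between A10i and DMSO hearts all 8 members had a higher fitted level with A10i, from 1.22 times for Podn to 2.00 times for Aspn, and none passed the adjusted threshold. Of all genes tested, 50.7% had a higher fitted level there. The members share the same libraries and some moved together, so they do not count as independent. Levels are given below in CPM, counts scaled to a common library size by the TMM method, for libraries S1, S2 and S3 of Sham, A105, A127, A128 and A129 of DMSO, and A116, A117, A119 and A120 of A10i, in that order.

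Most of the members lie in 3 gene clusters (build mm10). Dcn (chr10:97479609-97518143) and Lum (chr10:97565128-97572703) are neighbours on the plus strand, with Kera and Epyc beyond them. Aspn (chr13:49544443-49567565) and Ogn (chr13:49608046-49624501) lie on the plus strand with Ecm2 and Omd. Fmod (chr1:134037254-134048277, plus strand) and Prelp (chr1:133910304-133921414, minus strand) lie near Optc, while Bgn (chrX:73483602-73495933, plus strand) and Podn (chr4:108014791-108096445, minus strand) stand apart from these clusters. Aspn shares 7 exon bases with Cenpp on the opposite strand, and Prelp shares 350 exon bases with Gm15851 on the opposite strand. Cenpp had 34 to 73 counts and Gm15851 0 to 4 counts per library, far below the counts of Aspn (545 to 2438) and Prelp (1084 to 2250).

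The bases before the start of Bgn, Aspn and Ogn are shown because Bgn and Aspn moved together across libraries while Aspn and its cluster neighbour Ogn did not. Each run is the 250 bases upstream of the RefSeq start (GRCm38.p6), on the plus strand and 5′ to 3′, and the table of RefSeq promoters used here matched 6 of the 8 members, all but Dcn and Lum. Capitals mark every match, on either strand, to a TATA box (TATAAA), a GC box (GGGCGG), an AP-1 site (TGACTCA) or a SMAD motif (CAGACA).
Bgn, chrX:73483351-73483600: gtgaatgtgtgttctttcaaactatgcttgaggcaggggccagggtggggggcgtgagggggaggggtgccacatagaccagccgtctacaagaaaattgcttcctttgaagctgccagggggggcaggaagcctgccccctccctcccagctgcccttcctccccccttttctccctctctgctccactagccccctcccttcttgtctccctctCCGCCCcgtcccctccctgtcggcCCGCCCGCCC
Aspn, chr13:49544193-49544442: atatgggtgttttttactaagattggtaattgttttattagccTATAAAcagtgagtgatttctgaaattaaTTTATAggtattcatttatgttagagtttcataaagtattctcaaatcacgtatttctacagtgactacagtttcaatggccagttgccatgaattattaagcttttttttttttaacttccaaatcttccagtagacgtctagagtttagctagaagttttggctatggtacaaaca
Ogn, chr13:49607765-49608014: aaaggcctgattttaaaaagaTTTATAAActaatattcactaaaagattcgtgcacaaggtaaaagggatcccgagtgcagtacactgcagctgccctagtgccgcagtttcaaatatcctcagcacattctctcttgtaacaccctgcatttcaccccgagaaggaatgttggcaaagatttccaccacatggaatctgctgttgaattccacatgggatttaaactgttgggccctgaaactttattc
Bgn held 3 GC box matches, of which the last pair overlap, and no TATA box letters. Aspn and Ogn each held 2 matches to the TATA box letters and no GC box letters, and the pair in Ogn overlap. All of these TATA box matches lie nearer the far end of the run than the RefSeq start. Whether any of them acts as a TATA box was not tested. None of the 3 runs held the AP-1 or SMAD letters. Among 32851 RefSeq promoter windows of the same length, 32.7% held the GC box, 12.4% the TATA box, 4.46% the AP-1 letters and 17.1% the SMAD letters. GC content was 64.4% for Bgn, 42% for Ogn and 30% for Aspn.

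Dcn encodes a proteoglycan with a chondroitin or dermatan sulfate chain that coats collagen fibrils and binds TGF-beta. Its levels were 435, 424 and 467 CPM in Sham, 437, 555, 601 and 466 CPM in DMSO, and 583, 771, 612 and 672 CPM in A10i hearts. All 4 A10i libraries lay above all Sham libraries, while the DMSO libraries reached from the Sham range up into the A10i range. The log2 fold change was 0.22 ± 0.13 (SE) in DMSO against Sham (adjusted p = 0.202) and 0.58 ± 0.11 in A10i against Sham (adjusted p = 0.00267). Both p-values are from the quasi-likelihood test of edgeR, adjusted by Benjamini-Hochberg over all genes tested, as are those below unless another tool is named.

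Bgn encodes the closest relative of decorin, with a pair of such chains, whose soluble form is a ligand of the receptors TLR2 and TLR4. The levels were 252, 228 and 247 CPM in Sham, 365, 658, 496 and 844 CPM in DMSO, and 893, 637, 620.1 and 742 CPM in A10i hearts. Every infarcted library lay above every Sham library, and the DMSO libraries spread over more than the range of the A10i libraries. In DMSO against Sham, Bgn rose by 1.28 ± 0.25 (SE) on the log2 scale (edgeR adjusted p = 0.00446). The call was lost without S1, S2 or S3 (edgeR adjusted p = 0.0206, 0.0243 and 0.0221), without A127 (0.0114) and with no filter on low counts (0.0262), and it held without A105, A128 or A129 (0.000833 to 0.00588). In A10i against Sham, Bgn rose by 1.58 ± 0.14 (edgeR adjusted p = 9e-05), and that call remained without any single library.

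Aspn encodes asporin, an aspartate-rich member of the same class without a sugar chain of the chondroitin type, which binds collagen and TGF-beta. Its levels were 39.8, 35.8 and 39.7 CPM in Sham, 23.0, 53.2, 29.1 and 59.0 CPM in DMSO, and 96.6, 52.5, 79.6 and 99.0 CPM in A10i hearts. The DMSO libraries split around the Sham range, with A105 and A128 below it and A127 and A129 above it, and the 4 A10i libraries all lay above Sham. The log2 fold change was 0.09 ± 0.30 in DMSO against Sham (edgeR adjusted p = 0.821) and 1.10 ± 0.20 in A10i against Sham (edgeR adjusted p = 0.00344). The A10i call ended without A116, where the edgeR adjusted p was 0.0308, and without S1, S2 or S3, where it was 0.0146, 0.0146 and 0.0125. The Dcn call in the same comparison ended without S1, S2 or S3 too, at 0.0192, 0.0203 and 0.0125.

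Lum encodes lumican, a keratan sulfate proteoglycan known from the ordered collagen of the cornea. The levels were 88.1, 82.8 and 81.7 CPM in Sham, 77.3, 110.3, 97.9 and 125 CPM in DMSO, and 141.5, 128.9, 138 and 144 CPM in A10i hearts. On the TMM scale all A10i libraries lay above all others, and of the DMSO libraries A105 lay below the Sham range and the other 3 above it. With plain library totals the A10i and DMSO ranges overlapped. Lum rose in A10i against Sham by 0.72 ± 0.07 on the log2 scale (edgeR adjusted p = 0.000142), and its change in DMSO against Sham was 0.28 ± 0.14 (edgeR adjusted p = 0.144).

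Fmod encodes fibromodulin, a collagen-binding relative of lumican abundant in tendon and cartilage. It was the scarcest member, with 11.65, 5.83 and 11.4 CPM in Sham, 6.79, 4.86, 4.52 and 5.26 CPM in DMSO, and 9.12, 12.7, 7.26 and 8.99 CPM in A10i hearts. Sham library S2 lay within the DMSO range, while the other two Sham libraries lay above every DMSO library. The A10i range enclosed the other two Sham libraries and not S2. The log2 fold change was -0.85 ± 0.24 in DMSO against Sham (edgeR adjusted p = 0.0214), which passed at 0.00456 without S2 and in DESeq2 at 0.00445. It was -0.01 ± 0.26 in A10i against Sham, with a sign that changed when single libraries were left out.

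Prelp encodes a member with a basic, proline- and arginine-rich end that binds heparan sulfate and collagen. Its levels were 61.75, 58.65 and 62.1 CPM in Sham, 53.75, 54.1, 59.3 and 42.5 CPM in DMSO, and 63.7, 87.0, 54.7 and 72.6 CPM in A10i hearts. The Sham libraries were tightly grouped and the infarcted libraries were spread to both sides of them. The log2 fold change was -0.22 ± 0.11 in DMSO (edgeR adjusted p = 0.126) and 0.20 ± 0.14 in A10i hearts (edgeR adjusted p = 0.285).

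Ogn encodes osteoglycin, also called mimecan, which regulates collagen fibril assembly. Its levels were 155, 148 and 142 CPM in Sham, 94.05, 89.5, 114 and 92.2 CPM in DMSO, and 127.9, 106, 127.2 and 138 CPM in A10i hearts. On the TMM scale every infarcted library lay below every Sham library, the reverse of Bgn. With plain library totals the DMSO libraries stayed below Sham. A10i libraries A116 and A120 (141.8 and 141.7) then lay above the highest Sham library (139.9), whereas Bgn stayed apart on both scales. Ogn fell in DMSO against Sham (log2 fold change -0.61 ± 0.10, edgeR adjusted p = 0.00144), and in A10i against Sham it differed by -0.25 ± 0.09 (edgeR adjusted p = 0.0519). Without S1 the DMSO call ended at an edgeR adjusted p of 0.011.

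Podn encodes podocan, a more distant member of the family first described in the kidney. The levels were 34.5, 29.5 and 36.85 CPM in Sham, 24.2, 30.4, 24.7 and 26.3 CPM in DMSO, and 25.6, 40.0, 31.4 and 31.9 CPM in A10i hearts. All groups overlapped, with 3 of 4 DMSO libraries below the Sham range. The log2 fold change was -0.35 ± 0.11 in DMSO (edgeR adjusted p = 0.0273) and -0.06 ± 0.14 in A10i hearts (edgeR adjusted p = 0.776).

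**Figure D1:**
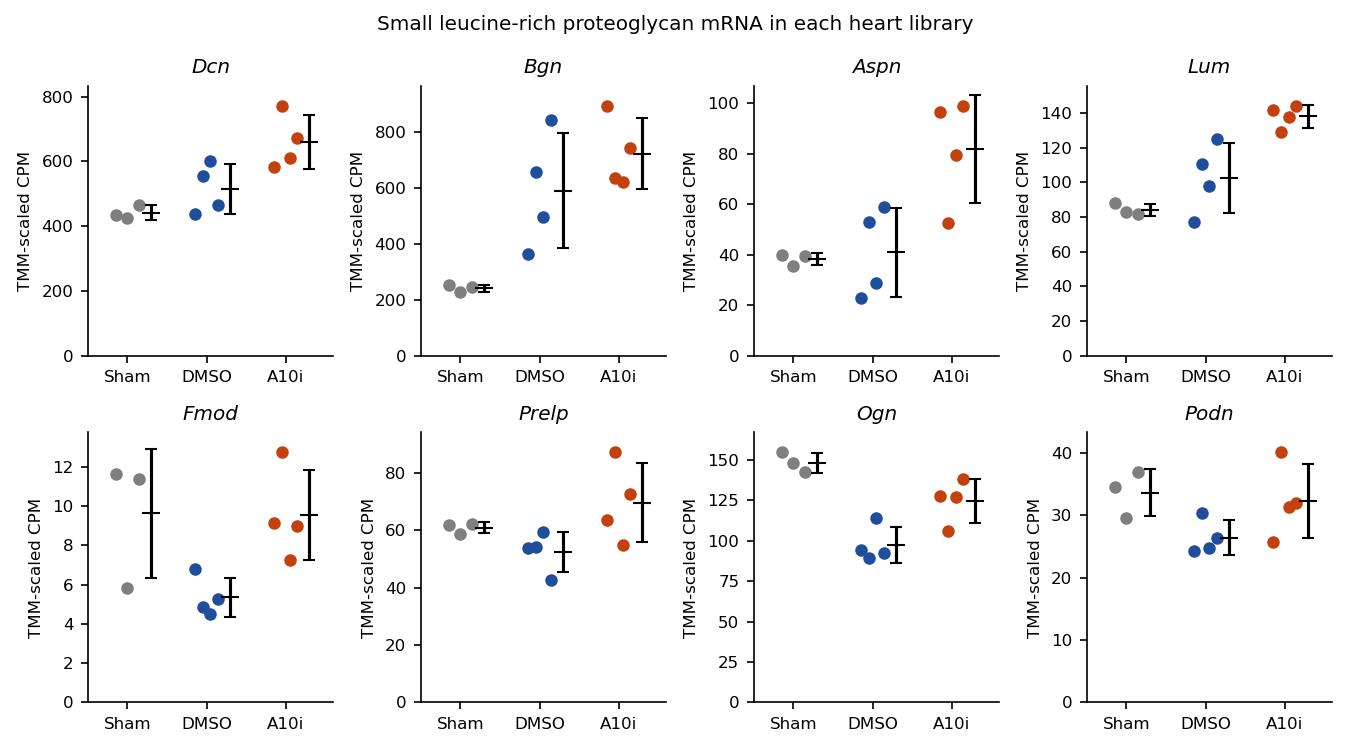
TMM-scaled CPM of the 8 members, 1 panel per gene with its own axis from 0; points are libraries of Sham (n = 3), DMSO (n = 4) and A10i (n = 4) hearts, and the bar beside them is the mean ± SD. On the TMM scale shown, Bgn lies higher and Ogn lower in every infarcted library than in every Sham library. The DMSO points of Aspn lie on both sides of Sham.

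Counted over the members, 1 of 8 rose (Bgn) and 1 of 8 fell (Ogn) in DMSO against Sham at an edgeR adjusted p under 0.01. Over all 17117 genes tested, 12.9% rose and 9.6% fell. In A10i against Sham, 4 of 8 rose (Dcn, Bgn, Lum and Aspn) and none fell, against 13.7% and 9.11% of 16971 genes. The count of 4 became 2 without any one of the 3 Sham libraries, leaving Bgn and Lum. In DESeq2 and in limma-voom none of the 8 fell in A10i against Sham either, and at an unadjusted p under 0.05 in edgeR 1 was lower (Ogn). The median log2 fold change of the members was -0.06 and 0.39 in these comparisons, beside 0.00 and -0.01 over all genes. Scaling by library size in place of TMM moved the median of all genes to 0.21 and 0.18. The shares of all genes whose libraries did not overlap with Sham are not given here.

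**Figure D2:**
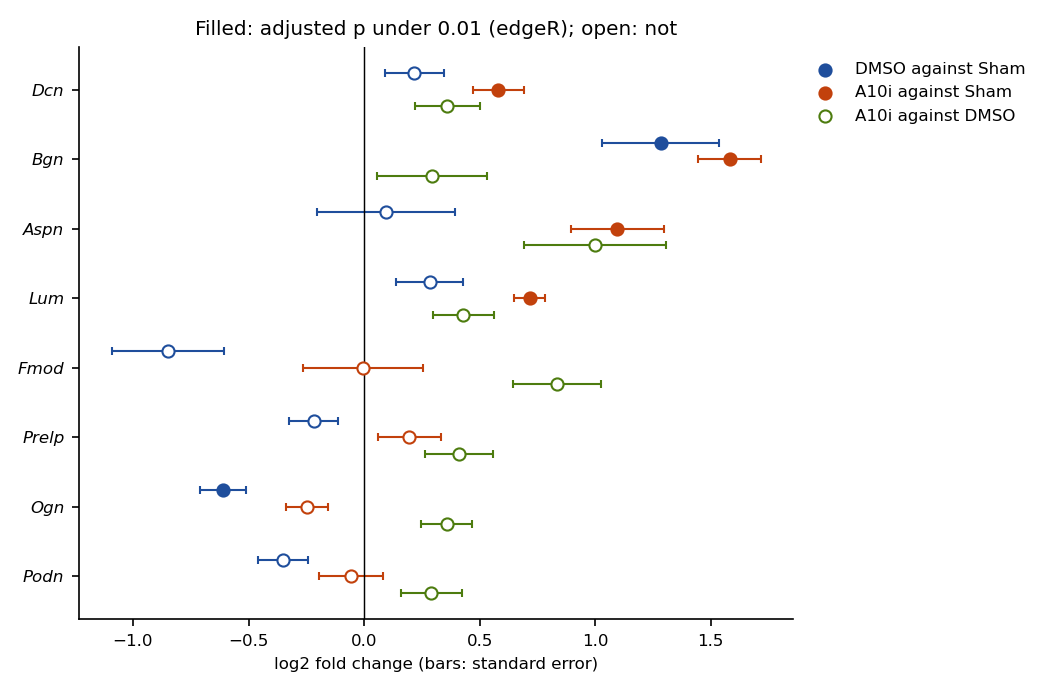
Log2 fold change of each member (x axis) in DMSO against Sham, A10i against Sham and A10i against DMSO; bars are standard errors and filled points have an edgeR adjusted p under 0.01. The 8 points of A10i against DMSO all lie right of 0, as do 50.7% of all genes tested, and are all open.

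Between A10i and DMSO hearts, 0 of 8 members passed an adjusted p under 0.01 in the edgeR test, and 0% of 16792 genes did. At an unadjusted p under 0.05 in edgeR, 6 of 8 were higher and none was lower, beside 7.1% of all genes higher and 6.73% lower. DESeq2 called 1 member (Fmod, adjusted p = 0.00636) among 231 genes in all, and limma-voom called none. The median log2 difference of the members was 0.39 and that of all genes 0.00. On the TMM scale Lum and Fmod were higher in every A10i library than in every DMSO library, a pattern held by 4.01% of all genes. With plain library totals Fmod stayed apart, but Lum overlapped. Its level in DMSO library A129 (140.8) then lay above those in A117 and A119 (129.7 and 137.5).

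Fmod had the smallest p of the members, at a log2 difference of 0.84 ± 0.19 (SE; unadjusted p = 0.00132, edgeR adjusted p = 0.112). Lum differed by 0.43 ± 0.13 (edgeR adjusted p = 0.197), Ogn by 0.36 ± 0.11 (edgeR adjusted p = 0.197) and Aspn by 1.00 ± 0.31 (edgeR adjusted p = 0.207). Aspn thus had the largest difference and also the largest error of the 8. Prelp differed by 0.41 ± 0.15 (edgeR adjusted p = 0.263), Dcn by 0.36 ± 0.14 (edgeR adjusted p = 0.296) and Podn by 0.29 ± 0.13 (edgeR adjusted p = 0.368). Bgn, the member with the strongest rise after MI, differed by 0.29 ± 0.24 (edgeR adjusted p = 0.636), less than the spread of its DMSO libraries.

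Summed marker genes of several cell types also differed between Sham and infarcted hearts. The DMSO and A10i ranges of these sums overlapped for every list but the fibroblast and neutrophil lists. In A10i against DMSO hearts, 11 of 12 fibroblast markers, 8 of 8 activated fibroblast markers, 7 of 7 epicardial markers and 8 of 8 macrophage markers had higher fitted levels (medians 0.40, 0.39, 0.74 and 0.41 on the log2 scale). So did 8 of 8 smooth muscle and pericyte markers and 8 of 9 tested markers of cartilage, tendon and late scar (medians 0.24 and 0.71), 7 of 10 cardiomyocyte markers and 6 of 8 endothelial markers (medians 0.19 and 0.10), while 6 of 6 tested neutrophil markers had lower ones (median -1.74). Of all genes tested, 50.7% had higher fitted levels in this comparison. None of these markers passed an edgeR adjusted p under 0.01. DESeq2 called Dpt and Islr of the fibroblast list and Angptl7 and Cytl1 of the cartilage list, all 4 higher, and 4 neutrophil markers lower, and limma-voom called none. At an unadjusted p under 0.05 in edgeR, the markers higher numbered 5 for fibroblasts, 2 for activated fibroblasts, 6 for epicardium, 5 for macrophages, 4 for smooth muscle and pericytes, 5 for cartilage, tendon and late scar, 1 for cardiomyocytes and 1 for endothelium, and 6 neutrophil markers and 1 cartilage marker were lower. The shares of all genes at that p were 7.1% higher and 6.73% lower. The summed fibroblast markers ranged from 1725 to 1869 CPM in Sham, 1275 to 1613 CPM in DMSO and 1639 to 2085 CPM in A10i hearts. Most of that sum was Gsn (gelsolin, an actin-severing protein), with means of 1336, 824.5 and 1050 CPM, and without it the other 11 markers summed to 434 to 478, 509 to 745 and 736 to 887 CPM, a sum chosen after seeing the data. In DMSO against Sham, 9 of 12 fibroblast markers had higher fitted levels, 3 of the 12 rose and 2 fell in edgeR, and the median log2 fold change was 0.18. The shares of all genes there were 50.2% with higher fitted levels, 12.9% that rose and 9.6% that fell. The sums of the activated fibroblast markers were 232 to 279, 687 to 2325 and 1105 to 3017 CPM, those of macrophages 377 to 398, 551 to 929 and 718 to 1351 CPM, and those of neutrophils 1.05 to 2.08, 67.9 to 125.5 and 13.6 to 47.7 CPM. Sums of the cartilage, tendon and late scar markers were 33.8 to 52.7, 61.9 to 122 and 110 to 154 CPM, and those of smooth muscle and pericytes 1425 to 1497, 659 to 911.5 and 812 to 1070 CPM. Most of the smooth muscle and pericyte sum was Rgs5 (means of 709, 368 and 441.5 CPM) and Abcc9 (570, 275 and 303 CPM). Of the 8 markers in that list, 3 fell and none rose in DMSO against Sham in edgeR. In A10i against Sham, 3 of them fell and 2 rose. Epicardial sums were 27.4 to 44.0, 42.4 to 67.1 and 56.1 to 115 CPM, and cardiomyocyte sums 93300 to 96240, 43360 to 63560 and 53250 to 73800 CPM. Myh6 and Atp2a2 were the largest parts of the cardiomyocyte sum. Of 10 cardiomyocyte markers, 5 fell in DMSO and 3 in A10i hearts against Sham in edgeR, and none rose. Tnnt2 and Actn2 had higher fitted levels in DMSO against Sham. Over all genes, 13.7% rose and 9.11% fell in A10i against Sham. Endothelial sums were 844 to 890, 736 to 894 and 832 to 884.5 CPM, with overlap between all groups. Of these markers only Ly6g of the neutrophil list was at 0 counts in every library of a group, the Sham group. The part of these cell types in the differences was not tested, and in bulk tissue fewer cells of a type and less RNA per cell cannot be told apart.

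The members could be compared with each other only per length, as CPM per kilobase of the principal transcript. By mean, Dcn was first in every group (251 ± 12.6 SD in Sham, 293 ± 43.5 in DMSO, 375 ± 47.4 in A10i) and Bgn came next (100.2 ± 5.15, 244 ± 85.5 and 299 ± 51.9). Their ranges overlapped in DMSO (248 to 342 and 151 to 349) and A10i hearts (331 to 439 and 256 to 369) but not in Sham. Ogn was the third in Sham at 57.8 ± 2.40 ahead of Lum at 34.4 ± 1.40, and their ranges did not overlap. After MI Lum was the third by mean, at 41.9 ± 8.26 in DMSO and 56.4 ± 2.69 in A10i hearts, ahead of Ogn at 38.0 ± 4.41 and 48.6 ± 5.31, with ranges that overlapped in both groups. Aspn and Prelp followed, with Prelp ahead by mean in Sham (16.8 ± 0.527 and 16.5 ± 0.981) and Aspn ahead in DMSO (17.6 ± 7.60 and 14.5 ± 1.95) and A10i hearts (35.2 ± 9.20 and 19.2 ± 3.81), and their ranges overlapped in all 3 groups. Aspn reached up into the range of Ogn in A10i hearts alone. Podn followed without overlap at 10.6 ± 1.19, 8.33 ± 0.886 and 10.2 ± 1.87, and the last was Fmod at 3.08 ± 1.05, 1.72 ± 0.32 and 3.05 ± 0.74. With the summed exon length of the count table, Bgn ranked ahead of Dcn in both infarcted groups, since the table counts 5838 exon bases for Dcn and 6099 for Bgn against 1758 and 2419 in the principal transcripts.

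In both infarcted groups the share of Bgn in the pool lay above its Sham range, and those of Ogn, Prelp and Podn lay below theirs. Shares are parts of a fixed whole, so a rise of Bgn lowers the shares of the others even at unchanged levels. Summed per length, the 8 transcripts reached 491 ± 18.6 CPM per kb in Sham, 659 ± 109.5 in DMSO and 847 ± 50.7 in A10i hearts. Bgn made up 20.4% ± 0.494 (SD) of that sum in Sham, 36.3% ± 7.75 in DMSO and 35.2% ± 4.88 in A10i hearts. Ogn made up 11.8% ± 0.717, 5.91% ± 1.26 and 5.76% ± 0.711, and Dcn 51.2% ± 1.34, 45.0% ± 7.04 and 44.4% ± 5.47. Prelp made up 3.43%, 2.27% and 2.27% by mean, and Podn 2.16%, 1.28% and 1.2%. The levels of Prelp and Podn themselves were not called against Sham in either infarcted group in edgeR. With the exon lengths of the count table, the shares in the same order of groups were 15.8%, 31.1% and 29.45% for Bgn, 23%, 12.8% and 12.1% for Ogn and 30.1%, 29.3% and 28.3% for Dcn, and the sum was 252, 305 and 401 CPM per kb. The rise of the Bgn share and the falls of the Ogn, Prelp and Podn shares held with either length. With the longer one the mean Dcn share of each infarcted group differed from that of Sham by less than its own SD. The ratio of Bgn to Dcn per length was 0.384 to 0.421 in Sham, 0.600 to 1.32 in DMSO and 0.601 to 1.11 in A10i hearts, so that no infarcted library reached down to Sham. The ratio of Aspn to Ogn was 0.266 to 0.307 in Sham and 0.547 to 0.832 in A10i hearts, while DMSO libraries A105 and A128 stood at 0.269 and 0.280 and A127 and A129 at 0.655 and 0.704.

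**Figure D3:**
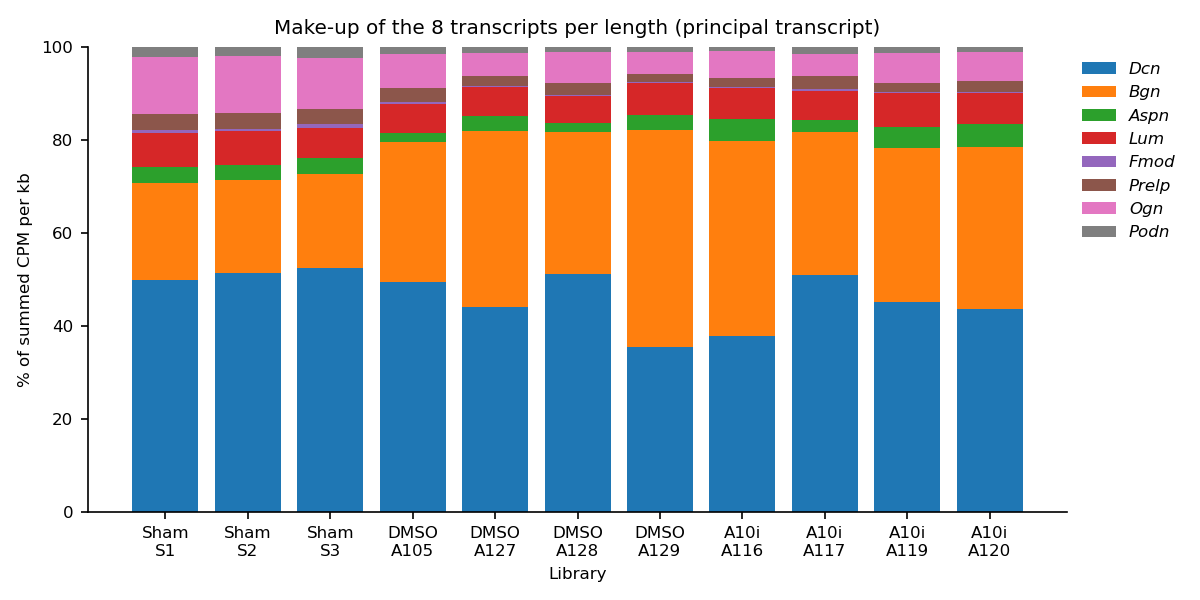
Share of each member (y axis, %) in the summed CPM per kb of principal transcript, 1 stacked bar per library. The orange Bgn share is near 20.4% in Sham and from 30.1% to 46.6% in the infarcted libraries, and the Ogn share is smaller in every infarcted library than in Sham.

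Within groups, some members moved together. After each group's mean was removed, Bgn, Lum and Aspn correlated over the 11 libraries (Pearson's r 0.927 for Bgn and Lum, 0.894 for Bgn and Aspn, 0.889 for Lum and Aspn), and with any library left out r stayed between 0.825 and 0.969. In DMSO hearts, A105 was the lowest and A129 the highest library for these 3 genes, with Aspn at -0.73 and 0.63 on the log2 scale around the group mean. Dcn correlated with Prelp (r = 0.724, from 0.579 to 0.911 with single libraries left out) and less firmly with Podn (r = 0.653, 0.461 to 0.918), Prelp and Podn had r = 0.453 (0.03 to 0.563), and A117 was the highest A10i library for all 3. These are descriptions, since the libraries share tissue sampling and depth.

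Neighbours in a cluster were not the pairs with the highest r. Dcn and its neighbour Lum had r = 0.079, from -0.786 to 0.4 with single libraries left out. Aspn and Ogn had r = 0.07 (-0.407 to 0.415), and Fmod and Prelp had r = 0.443 (0.196 to 0.583).

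**Figure D4:**
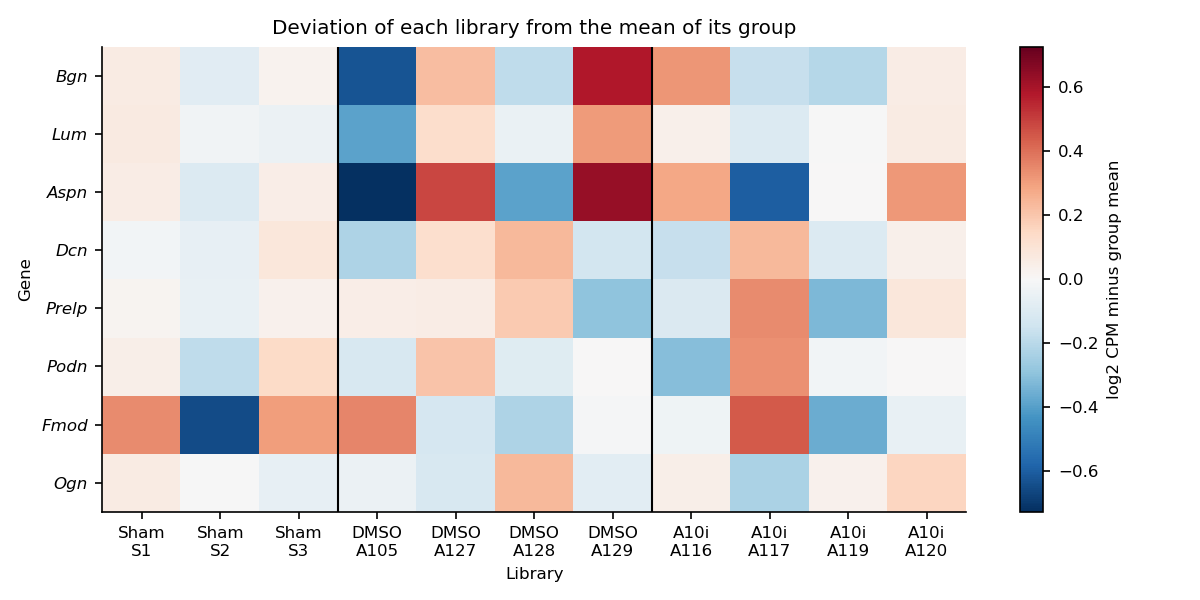
Log2 CPM of each member (rows) minus the mean of its group, for each library (columns); red is above and blue below the group mean. Bgn, Lum and Aspn share their lowest (A105) and highest (A129) DMSO library.

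**Figure D5:**
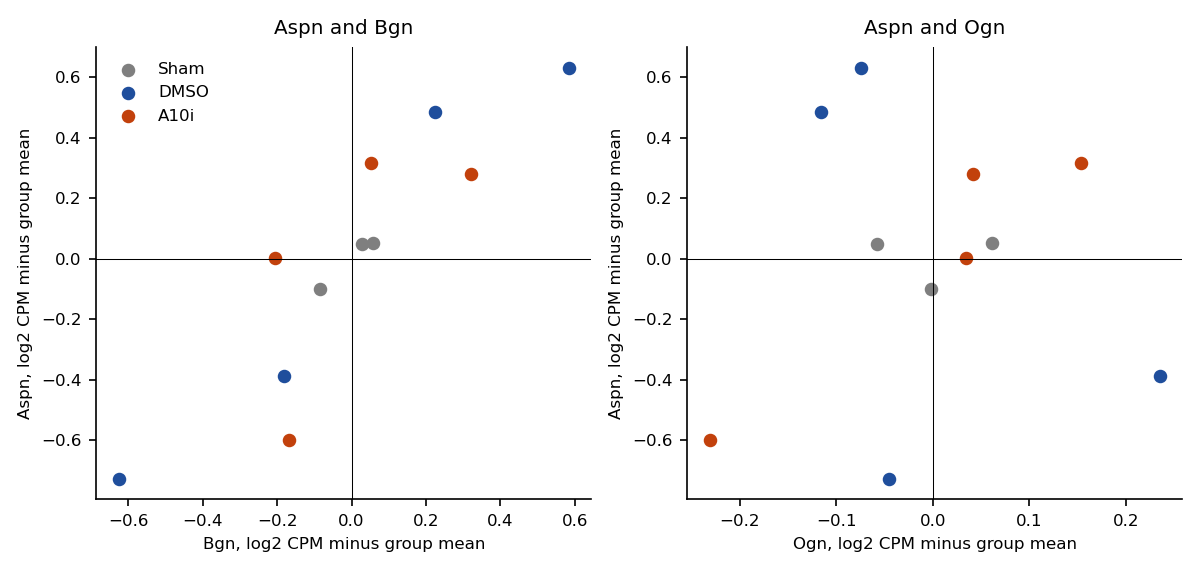
Deviation of Aspn from its group mean (y axis, log2 CPM) against that of Bgn (left) and of its cluster neighbour Ogn (right); each point is 1 of 11 libraries. The points lie along a rising line for Bgn (r = 0.894) and are scattered for Ogn (r = 0.07).

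Among 10008 genes with a mean log2 CPM of at least 3, those most like Bgn over the 11 libraries with group means removed were Crtap (r = 0.986), which takes part in collagen prolyl hydroxylation, the lysyl oxidase relative Loxl3 (0.981) and Pcolce (0.980), an enhancer of procollagen processing. Those most like Aspn were Igfbp7 (0.989), Postn (0.981), which encodes the matricellular protein periostin, and Slc35a5 (0.962). For Lum they were Fndc1, Steap3 and Aoc3 (0.962 to 0.959), and for Dcn Abhd18, Lama5 and Scn7a (0.971 to 0.948). Likeness was lower for Ogn (Ptp4a2, Capn1 and Igsf1, 0.927 to 0.910), Podn (A530016L24Rik, Smyd2 and BC004004, 0.918 to 0.892), Prelp (Tppp3, 1700120C14Rik and Enpp2, 0.907 to 0.904) and Fmod (Hp, Dkk3 and Tomm20, 0.881 to 0.834). These are the highest values among 10008 genes over only 11 libraries, so high r can arise by chance, which was not tested. Against the summed marker lists, Bgn, Lum and Aspn went with activated fibroblast markers (r = 0.917, 0.808 and 0.872), macrophage markers (0.895, 0.683 and 0.737) and cartilage, tendon and late scar markers (0.805, 0.695 and 0.727), and against cardiomyocyte markers (-0.806, -0.651 and -0.527). With the fibroblast sum, Dcn and Prelp had r = 0.817 and 0.877 and Bgn, Lum and Aspn -0.519, -0.422 and -0.575. Both patterns rested on Gsn, since with the other 11 fibroblast markers r was -0.02 for Dcn, -0.319 for Prelp, 0.976 for Bgn, 0.879 for Lum and 0.908 for Aspn. Dcn and Prelp also went with smooth muscle and pericyte markers (0.764 and 0.661), and Podn with epicardial markers (0.857). The smooth muscle and pericyte sum was mostly Rgs5 and Abcc9, and r without them is not given here. These pairings were not particular to those members. Fmod and Prelp had r = 0.665 and 0.574 with epicardial markers, Podn 0.525 with smooth muscle and pericyte markers, and Bgn and Lum 0.617 and 0.646 with endothelial markers. The list of fibroblast markers holds Pcolce and that of activated fibroblasts Postn.

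Of 10 further family members, 7 had enough counts to test. Tsku (tsukushi, a secreted signalling modulator) was at 1.86, 2.58 and 2.46 CPM in Sham, 10.4, 11.3, 12.8 and 17.2 CPM in DMSO and 13.75, 9.05, 8.25 and 7.78 CPM in A10i hearts. It rose in both comparisons with Sham by log2 fold changes of 2.48 ± 0.21 and 2.08 ± 0.23 (edgeR adjusted p = 9.4e-05 and 0.0003), without overlap. Epyc (epiphycan, a cartilage proteoglycan) had 0, 0 and 3 counts in Sham, 14 to 21 in DMSO and 11 to 49 in A10i hearts and was called higher in both (edgeR adjusted p = 0.00302 and 0.0021).

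Ecm2 and Omd (osteomodulin), which share the chromosome 13 cluster with Ogn, fell with it in DMSO hearts. Ecm2 was at 30.6 to 35.5 CPM in Sham, 13.7 to 20.4 in DMSO and 21.3 to 28.4 in A10i hearts, and fell in DMSO against Sham by 1.01 ± 0.14 on the log2 scale (edgeR adjusted p = 0.000608). Omd was at 1.61 to 1.99, 0.506 to 0.905 and 1.43 to 2.25 CPM, on 12 to 50 counts, and fell in DMSO against Sham by 1.31 ± 0.25 (edgeR adjusted p = 0.00306). On the TMM scale both were higher in every A10i library than in every DMSO library, a pattern held by 4.01% of all genes. With plain library totals Ecm2 overlapped (21.4 in A117 and 21.47 in A127). The log2 differences were 0.64 ± 0.14 for Ecm2 and 1.22 ± 0.25 for Omd (edgeR adjusted p = 0.105 and 0.0931). Both genes were called higher in DESeq2, but not in limma-voom. Aspn, in the same cluster, overlapped with Sham in DMSO hearts.

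Chad (chondroadherin), Chadl and Nyx were called in no comparison, with edgeR adjusted p from 0.0318 (Chad, A10i against Sham, log2 fold change 2.18 ± 0.67) to 0.936. Kera, Optc and Podnl1 had at most 12 counts in any library.

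Of all genes tested, 12.9% rose and 9.6% fell in DMSO against Sham, and 13.7% rose and 9.11% fell in A10i against Sham. Among the partners of these proteins, 7 of 10 tested fibrillar collagen genes rose in DMSO and 9 of 10 in A10i hearts against Sham (medians 2.11 and 2.76 on the log2 scale) and none fell. Col3a1 rose by 2.42 ± 0.41 and 2.96 ± 0.22 (edgeR adjusted p = 0.0022 and 8.16e-05). Of 21 enzymes that build the linkage region and the chondroitin and dermatan sulfate chains, 7 rose and none fell in DMSO, and 7 rose and 1 fell (Fam20b) in A10i hearts. Dse, the epimerase that turns chondroitin into dermatan sulfate, rose by 1.12 ± 0.18 and 1.22 ± 0.20 (edgeR adjusted p = 0.00136 and 0.00209).

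Of 12 tested proteases known to cleave these proteoglycans, 6 rose in DMSO and 6 in A10i hearts, and none fell. The smallest p in DMSO against Sham were those of Mmp8, Mmp9 and Adamts4 (edgeR adjusted p = 4.17e-05, 5.15e-05 and 0.000154), and Mmp8 is also in the neutrophil list. Of 24 receptors and bound growth factors, 13 rose and 2 fell (Bmp6 and Kdr) in DMSO, and 13 rose and 1 fell (Erbb4) in A10i hearts. Beside these counts, 12.9% of all genes rose and 9.6% fell in DMSO, and 13.7% rose and 9.11% fell in A10i hearts. Tlr4, a receptor of soluble biglycan, rose by 1.12 ± 0.10 and 0.81 ± 0.09 (edgeR adjusted p = 0.000122 and 0.000246). None of the genes in these 4 lists was called between A10i and DMSO hearts in edgeR, where at an unadjusted p under 0.05 6 of the 67 tested genes were higher (8.96%) and 9 lower (13.4%), beside 7.1% and 6.73% of all genes. DESeq2 called Adamts5 and Kdr higher there, and limma-voom called none.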

How the data were processed

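Polyadenylated RNA was sequenced from strand-specific libraries. The authors aligned the reads to mm10 with GSNAP after bcl2fastq (2.20.0), as the submitters' processing notes name them, and deposited raw counts per Ensembl gene made with featureCounts (2.0.1); the strand setting of the counting is not given in the sources used here. The 92 spike-in rows were left out (at most 0.000194% of counts). Totals were 21702623 to 29511768 counts per library. Symbols and principal transcript lengths came from the GENCODE M21 annotation and the symbol table.

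Each pair of groups was fitted on the whole table with edgeR 4.0.16 (R 4.3.3; filterByExpr, TMM, robust quasi-likelihood fit, two-sided), with Benjamini-Hochberg adjustment over all genes tested and a threshold of 0.01; the standard error is the log2 fold change over the root of F. The code was tested on simulated data. DESeq2 1.42.0, limma-voom (limma 3.58.1), other scalings, filters and left-out libraries were alternatives; correlations used log2 CPM with a prior count of 2. All 8 members, the other family genes, the 3 genes of a list with the smallest p per direction, of which examples are given, and the 3 genes most like each member were named by rule. The members and lists were chosen with earlier results of these data known.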

Additional observations from a re-analysis of the deposited data

How the results depend on the processing

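In DMSO against Sham, 2 members were called, 1 with library size alone (Bgn), 1 with no filter on low counts (Ogn) and 4 at a threshold of 0.05 (Fmod and Podn added). Over all genes, those settings in that order called 3858 of 17117, 4038 of 17117, 4341 of 31308 and 6832 of 17117. With each library left out the count of members ranged from 0 (without S1, where 1542 of 17612 genes were called) to 2. In A10i against Sham, the count of 4 ranged from 2 to 4 with each library left out. Over all genes, 3879 of 16971 were called in the main run and 1620 of 17324 without S1, where 2 members were called. Aspn also missed the threshold in A10i against Sham with no filter and with all 11 libraries in one fit (edgeR adjusted p = 0.033 and 0.0215). In A10i against DMSO, DESeq2 called 1 member in place of 0, and 231 of 31656 genes. The count of members higher at an unadjusted p under 0.05 ranged from 4 (without A117) to 7. Over all genes, the share at that p in either direction was 12.1% without A117. It ranged from 8.83% to 16.95% in the settings with 7 members, beside 13.8% in the main run.

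Values near 0 changed sign. Aspn in DMSO against Sham was -0.011 in limma-voom and ranged from -0.129 to 0.275 with each library left out. Fmod in A10i against Sham was 0.054 in limma-voom, 0.181 with library size alone, 0.006 with at least 10 counts in every library, and -0.27 to 0.152 with each library left out. Podn in A10i against Sham was 0.124 with library size alone and -0.177 to 0.042 with each library left out. The 8 differences between A10i and DMSO kept their sign in every alternative run. Levels per length of 6 members in Sham moved by more than 1 SD with plain library totals. The causes were not tested.

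Over all genes, 3858 were called in DMSO against Sham (1525 to 1542 without a Sham library, 6832 at 0.05), 3879 in A10i against Sham (1620 to 1714 without a Sham library, 6671 at 0.05), and 0 in A10i against DMSO (231 in DESeq2, 43 with no filter, 11 with all libraries in one fit). No paired analysis was possible because the labels give the groups no shared replicate numbers. Fmod is the member with the fewest counts (134 to 329 per library).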

Other observations

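Genes of the larger matrix proteoglycans and of hyaluronan synthesis moved after MI too. Of 7 tested in DMSO against Sham, 3 rose (the hyaluronan synthases Has1 and Has2, and the large chondroitin sulfate proteoglycan Vcan, versican) and 1 fell (Agrn, agrin). Vcan rose by 2.04 ± 0.20 on the log2 scale and Agrn fell by 0.47 ± 0.09 (edgeR adjusted p = 0.000225 and 0.00418). In A10i against Sham, 5 of 8 rose and Agrn fell by 0.32 ± 0.06 (edgeR adjusted p = 0.00281). Of 9 tested enzymes of keratan sulfate synthesis, the chain type of Lum and Fmod, 2 rose (B4galt1 and B3gnt7) and 2 fell (St3gal3 and B4galt4) in DMSO, and 2 rose (B4galt1 and Chst1) in A10i hearts. For comparison, 12.9% of all genes rose and 9.6% fell in DMSO against Sham, and 13.7% rose and 9.11% fell in A10i against Sham. Between A10i and DMSO hearts none of these genes was called in edgeR, with 3 higher and 1 lower at an unadjusted p under 0.05, and none in DESeq2 or limma-voom. At that unadjusted p in edgeR, 7.1% of all genes were higher and 6.73% lower.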
